A study of Mus musculus with 24 samples.

Results

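The genes described here are 8 genes grouped as output transcription factors of the circadian clock: Dbp, Tef, Hlf, Ciart, Bhlhe40, Bhlhe41, Nfil3 and Rora. They were taken by gene symbol from the deposited value table, in which 8 of 8 were present with 1 identifier each, out of 24011 named genes. Hearts came from C57BL/6J mice of 8 weeks, the same wild-type strain and age in every group. One set of animals had the middle cerebral artery of the brain occluded (MCAO), which causes an ischemic stroke, and the control animals had a sham operation. Total heart RNA was measured on Affymetrix arrays at 24 h or 72 h after the operation, with 6 arrays for each of the 4 groups. The labels give the hours since the operation and no hour of the day at which hearts were taken. They number the arrays of a group from 1 to 6 and do not say whether each array is another animal, so a p-value here speaks only to how far the arrays of a group spread, part of which may be technical.

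The circadian clock is a feedback loop present in most cells, the cardiomyocyte included. CLOCK, or its relative NPAS2, pairs with BMAL1 (the product of Arntl) and binds E-box sequences, which switches on the Per and Cry genes whose products then repress the pair. The same pair drives Dbp, and the PAR bZIP factors DBP, TEF and HLF in turn activate genes with D-box sequences, where NFIL3 (E4BP4) acts as a repressor. CIART (CHRONO) and the basic helix-loop-helix factors BHLHE40 (DEC1) and BHLHE41 (DEC2) repress CLOCK-BMAL1 at E-boxes, and RORA activates Arntl through ROR elements.

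The promoter sequences are shown because E-boxes are the sites that the clock pair binds. RefSeq promoters (build GRCm38.p6, 250 bases before to 50 after each annotated start) were matched for 7 of the 8 genes, with 2 starts for Tef, and Bhlhe40 was not matched. The E-box CACGTG, which reads the same on both strands, lay in the promoters of 3 genes: Ciart with 3 copies, beginning 116, 58 and 44 bases before the start, Tef with 1 at each start (127 and 138 bases before) and Bhlhe41 with 1 (153 bases before). Of 32851 promoters in the table, 7.15% held at least 1 copy and 0.0883% held at least 3. The window of Dbp held none. Printed 5′ to 3′ are the 250 bases before the start, with E-boxes in capitals, for the genes with an E-box and for Dbp, on which the results turn.
Ciart, chr3:95882229-95882478, minus strand: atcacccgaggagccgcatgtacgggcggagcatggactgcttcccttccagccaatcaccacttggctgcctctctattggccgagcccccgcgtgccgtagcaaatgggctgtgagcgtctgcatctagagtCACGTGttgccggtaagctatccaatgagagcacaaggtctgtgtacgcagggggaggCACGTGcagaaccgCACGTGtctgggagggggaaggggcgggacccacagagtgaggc
Tef, chr15:81802423-81802672, plus strand: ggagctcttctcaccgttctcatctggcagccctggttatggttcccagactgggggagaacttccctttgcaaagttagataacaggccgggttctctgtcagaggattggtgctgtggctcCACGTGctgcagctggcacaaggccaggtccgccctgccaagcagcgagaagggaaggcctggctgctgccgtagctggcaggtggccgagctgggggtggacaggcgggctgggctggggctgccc
Tef, chr15:81811164-81811413, plus strand: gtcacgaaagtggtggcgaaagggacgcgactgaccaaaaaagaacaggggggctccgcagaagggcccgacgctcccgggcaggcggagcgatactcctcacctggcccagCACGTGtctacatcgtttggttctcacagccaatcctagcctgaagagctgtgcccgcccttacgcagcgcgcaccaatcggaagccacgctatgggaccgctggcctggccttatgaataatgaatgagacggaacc
Bhlhe41, chr6:145865421-145865670, minus strand: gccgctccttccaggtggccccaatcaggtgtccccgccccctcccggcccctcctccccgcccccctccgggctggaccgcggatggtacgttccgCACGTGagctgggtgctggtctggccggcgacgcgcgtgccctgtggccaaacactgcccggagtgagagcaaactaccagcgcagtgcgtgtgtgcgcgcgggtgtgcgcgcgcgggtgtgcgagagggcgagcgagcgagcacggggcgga
Dbp, chr7:45704997-45705246, plus strand: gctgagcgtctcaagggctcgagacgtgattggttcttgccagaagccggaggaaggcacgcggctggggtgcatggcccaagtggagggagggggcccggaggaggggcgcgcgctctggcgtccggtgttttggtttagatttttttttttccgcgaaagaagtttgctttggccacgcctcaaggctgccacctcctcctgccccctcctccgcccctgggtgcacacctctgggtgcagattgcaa
None of the 8 windows held the E-prime box CACGTT, the D-boxes TTATGTAA or TTACGTAA, or a ROR element core (AGGTCA after a pair of A or T bases), searched on both strands. Over all promoters these were found in 4.68%, 0.94%, 0.12% and 3.38%. The full glucocorticoid response element was in 0 of the 8 windows and in 0.009% of all promoters. Its core AGAACA was in 1 window, that of the downstream Tef start, and in 18.97% of all promoters. A match of letters describes the window and not a bound site.

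Of the cardiomyocyte markers 10 of 10 were above 3.96, the level that 95% of 1370 olfactory and vomeronasal receptor genes stay under. This level stood in for background, and the 8 clock output genes averaged above it. The MCAO 24 h arrays stood apart from the rest. Their median SD per gene was 0.218 log2 against 0.105 to 0.13 in the other groups, and replicates 5 and 6 correlated least with the rest of their group (r across genes of 0.976 and 0.971). Fibroblast markers, 6 of 6 above the background level, averaged 7.0 to 7.68 in MCAO 24 h against 7.75 to 8.19 in sham 24 h, and 7.46 to 7.97 in MCAO 72 h against 7.62 to 8.60 in sham 72 h. Single fibroblast markers went both ways: at an unadjusted limma p under 0.05, 3 were lower and 1 higher after MCAO at each time. Cardiomyocyte markers averaged 12.35 to 12.54 in MCAO 24 h against 12.46 to 12.70 in sham 24 h, and 12.33 to 12.55 in MCAO 72 h against 12.54 to 12.73 in sham 72 h. Skeletal muscle markers, 4 of 9 above the background level, averaged 5.04 to 5.36 against 5.22 to 5.53 at 24 h and 5.09 to 5.29 against 5.24 to 5.50 at 72 h, MCAO named first. They share Ckm with the cardiomyocyte markers, so the averages are not independent. Adipocyte markers, 5 of 8 above that level, averaged 5.26 to 5.41 against 5.07 to 5.26 at 24 h and 5.14 to 5.46 against 5.19 to 5.47 at 72 h. The part of these markers in the MCAO results was not tested. Atrial markers (6 of 6 above the background level) averaged 5.17 to 6.46 in sham 24 h, 5.64 to 9.0 in MCAO 24 h, 5.44 to 8.34 in sham 72 h and 5.50 to 8.93 in MCAO 72 h.

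Between the sham groups, Dbp was the clock output gene that changed. Its log2 level was 7.91, 8.68 and 9.12 (lowest, median and highest of 6 arrays) at 24 h and 9.66, 10.22 and 10.48 at 72 h. All 6 arrays at 72 h lay above all 6 at 24 h. The mean went from 8.63 ± 0.47 to 10.13 ± 0.31 (SD, n = 6 each), a 2.82-fold rise (log2 change 1.5, SE 0.23, limma adjusted p = 0.0106, higher in 6 of 6 arrays). In whole heart RNA, a change in the number of cells of a type and a change in RNA per cell cannot be told apart, in this and the other comparisons. Only 5 of 24011 genes (0.0208%) passed in this comparison, so 1 of 8 clock output genes stood against a very low background. The other called genes were Arntl, Npas2, Per3 and Spon2, which encodes an extracellular matrix protein and fell by 0.58 (SE 0.09, adjusted p = 0.0106). Of the 5, Spon2 alone is outside the clock lists used here, and it was named after its values were seen. The lists and the 8 genes were also chosen with earlier results of these data known.

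The call of Dbp between the sham groups was lost when sham 24 h replicate 2 (log2 change 1.43, adjusted p = 0.0528) or sham 72 h replicate 6 (1.42, adjusted p = 0.0537) was left out, and when the 12 sham arrays were fitted alone (1.5, adjusted p = 0.0726), where Arntl was the only gene of all to pass. Sham 72 h replicate 6 also had the highest atrial markers of its group (8.34, the others 5.44 to 7.45). Its adipocyte markers were the highest as well (5.47, the others 5.19 to 5.26). The part of these markers in the Dbp value was not tested.

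**Figure D1:**
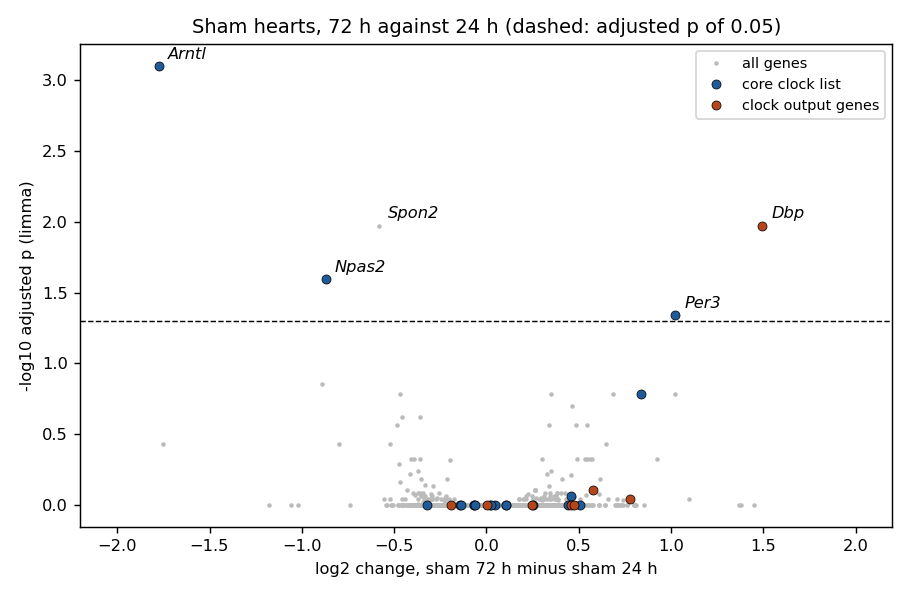
Log2 change from sham 24 h to sham 72 h (horizontal) against -log10 of the limma adjusted p (vertical) for 24011 genes, with the 8 clock output genes in red-brown and the core clock genes in blue. Dbp and Per3 on the right and Arntl, Npas2 and Spon2 on the left are the 5 genes above the dashed line.

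The other PAR bZIP genes, Tef and Hlf, did not pass between the sham groups. Tef was 5.16, 5.52 and 5.82 at 24 h and 5.55, 6.25 and 6.48 at 72 h (log2, lowest, median and highest), with 4 of 6 arrays above the highest at 24 h (log2 difference 0.58, SE 0.16, adjusted p = 0.787). Its interval, 0.24 to 0.92 (95%), leaves out 0 when no account is taken of the number of genes tested. With arrays weighted by how well they fit their group, Tef passed (0.65, adjusted p = 0.0413). Hlf was 5.63, 5.72 and 5.88 at 24 h and 5.98, 6.13 and 6.71 at 72 h. The Hlf groups did not overlap, with a log2 difference of 0.47 (SE 0.23, 95% interval 0.00 to 0.95).

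None of the repressors of CLOCK-BMAL1 passed either. Ciart was 4.79, 5.06 and 5.39 in sham 24 h and 5.19, 5.79 and 6.74 in sham 72 h, and 5 of 6 arrays at 72 h lay above the highest at 24 h. The log2 difference was 0.78 (SE 0.24, adjusted p = 0.905). Bhlhe41 was 5.28, 5.96 and 6.19 at 24 h and 6.19, 6.33 and 6.46 at 72 h (log2 difference 0.46, SE 0.17). Bhlhe40 was 8.63, 9.07 and 9.33 at 24 h and 9.11, 9.28 and 9.42 at 72 h, with groups that overlapped (0.25, SE 0.15).

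For Nfil3 and Rora no difference between the sham groups was detected. Nfil3, the repressor at D-boxes, ranged from 4.44 to 5.26 at 24 h and from 4.52 to 5.09 at 72 h (log2 difference -0.19, 95% interval -0.51 to 0.13). Rora ranged from 7.45 to 7.91 and from 7.26 to 7.83 (0.00, 95% interval -0.23 to 0.23). Over the 8 genes the median log2 difference between the sham groups was 0.47, against -0.0047 over all genes. At an unadjusted p under 0.05 there were 5 of the 8 higher (Dbp, Tef, Ciart, Bhlhe41 and Hlf), where 1.87% of all genes were. The arrays of the sham groups did not overlap for 2 of the 8, Dbp and Hlf, and for 0.433% of all genes.

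**Figure D2:**
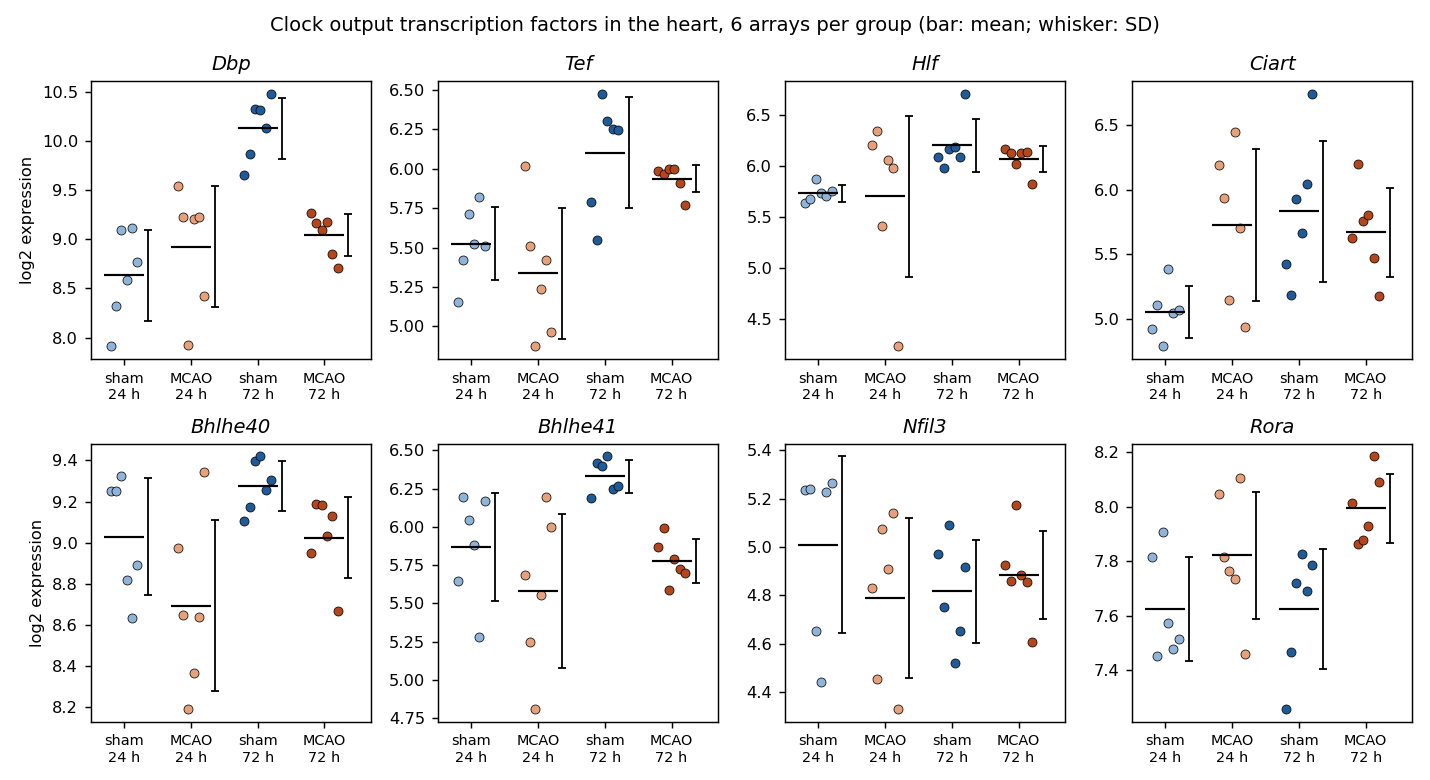
Log2 expression of the 8 clock output genes (1 panel each, vertical axes differ) in the 6 arrays of each group, with the mean as a bar and the SD as a whisker. For Dbp the 6 sham 72 h arrays sit between 9.66 and 10.48, above every array of the other groups, whose highest is 9.54.

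The core clock genes moved in both directions between the sham groups. Of 19 measured genes of the core list 1 rose and 2 fell, with a median log2 difference of 0.02. Arntl, which encodes BMAL1, fell from 6.80 ± 0.31 to 5.02 ± 0.47 (SD, n = 6 each), a log2 change of -1.78 (SE 0.22, adjusted p = 0.000791), and all 6 arrays at 72 h lay below all 6 at 24 h. Npas2 fell by 0.87 (SE 0.15, adjusted p = 0.0255) and the period gene Per3 rose by 1.02 (SE 0.18, adjusted p = 0.0458), each without overlap of the groups. Per2, another period gene, missed the threshold at 0.84 (SE 0.18, adjusted p = 0.166). Of 27 measured genes of the clock output list, which holds clock-controlled genes other than the 8 factors, 0 passed with limma, and at an unadjusted p under 0.05 there were 6 higher and 1 lower (median 0.09).

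At 24 h after MCAO, 1 of the 8 genes rose, the repressor gene Ciart. Of all genes 21.8% passed in this comparison, so calls among the 8 were no more frequent than that background. Ciart was 4.93, 5.82 and 6.44 in MCAO 24 h against 4.79, 5.06 and 5.39 in sham 24 h, and 4 of 6 MCAO arrays lay above every sham array. The change was 1.59-fold (log2 change 0.67, SE 0.24, adjusted p = 0.0490). It sat at the threshold: the call was lost when any of 17 of the 24 arrays was left out (adjusted p = 0.0511 to 0.123, log2 change 0.53 to 0.68). These were MCAO 24 h replicates 1, 2, 4 and 5, MCAO 72 h replicates 1, 3, 4 and 5, sham 24 h replicates 1, 2, 3, 5 and 6, and sham 72 h replicates 1, 3, 4 and 5. When the 12 arrays of 24 h were fitted alone it was lost too (adjusted p = 0.0799).

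Dbp did not pass at 24 h. It was 7.92, 9.21 and 9.54 in MCAO 24 h, where 4 of 6 arrays lay above the sham maximum of 9.12 and the other 2 arrays within the sham range. The log2 difference was 0.29 (SE 0.23, 95% interval -0.19 to 0.77, adjusted p = 0.392), an interval that leaves out a change as large as the 1.5 between the sham groups. It ranged from 0.15 (without sham 24 h replicate 1) to 0.49 (without MCAO 24 h replicate 3) with single arrays left out (adjusted p = 0.0925 to 0.691). With a component of the receptor genes (their main axis of variation over arrays) in the fit, it was 0.58. That component ran from -8.04 to -0.41 in MCAO 24 h and from 0.6 to 3.42 over the other groups. A fit with it therefore takes up part of any change of MCAO 24 h and does not measure how stable that change is. Tef was 4.87, 5.33 and 6.01 in MCAO 24 h, a log2 difference of -0.19 (95% interval -0.52 to 0.15). Hlf was 4.23, 6.02 and 6.35, with 4 arrays above and 2 arrays below the whole sham range of 5.63 to 5.88. The mean difference of Hlf, -0.03 (SE 0.23), turned to 0.27 without MCAO 24 h replicate 6, the array at 4.23.

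Among the remaining genes at 24 h, Bhlhe40 was 8.19, 8.64 and 9.34 after MCAO against 8.63, 9.07 and 9.33 after sham operation (log2 difference -0.34, SE 0.15, adjusted p = 0.117). It passed without MCAO 24 h replicate 6 (-0.47, adjusted p = 0.0148), the array at 9.34. Bhlhe41 was 4.81, 5.62 and 6.19 after MCAO (-0.29, SE 0.17, adjusted p = 0.249). Its size depended on single arrays and on the fit: it was -0.13 without MCAO 24 h replicate 3 and -0.41 without replicate 5 of that group, -0.52 with array weights (adjusted p = 0.0405) and -1.01 with the receptor component. Without MCAO 24 h replicates 5 and 6, the arrays that correlated least with their group, both repressors passed (Bhlhe40 -0.48, adjusted p = 0.0192, Bhlhe41 -0.54, adjusted p = 0.0160). Nfil3 ranged from 4.33 to 5.14 after MCAO (-0.22, 95% interval -0.54 to 0.10) and Rora from 7.46 to 8.11 (0.20, 95% interval -0.03 to 0.43). None of the 8 had groups without overlap at 24 h, against 5.53% of all genes, and their median log2 difference was -0.11, against 0.01 over all genes.

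Of the 19 measured core clock genes, 7 rose and 3 fell at 24 h, with a median log2 difference of 0.13. The cryptochrome gene Cry2 rose by 1.09 (SE 0.14) and Cry1 by 0.57 (SE 0.10), and the period genes Per1 and Per2 by 1.59 (SE 0.22) and 1.21 (SE 0.18). In each of these, all 6 MCAO arrays lay above all 6 sham arrays. Npas2 fell by 0.51 (SE 0.15) and Arntl2, a relative of Arntl, by 0.24 (SE 0.07). Of the 27 clock output genes other than the 8, 10 rose and 3 fell, with a median of 0.31. Pnpla2 (triglyceride lipase, 1.14, SE 0.09), the kinase gene Map3k6 (2.13, SE 0.21), the transcription factor gene Klf15 (1.17, SE 0.16) and the kinase gene Sik1 (1.04, SE 0.15) had the smallest p.

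At 72 h, Dbp fell after MCAO. It was 8.71, 9.13 and 9.26 in MCAO 72 h against 9.66, 10.22 and 10.48 in sham 72 h, and no array of MCAO 72 h reached the lowest sham array. The mean went from 10.13 ± 0.31 to 9.04 ± 0.21 (SD, n = 6 each), 2.12-fold lower (log2 change -1.09, SE 0.23, adjusted p = 0.00908). With each of the 24 arrays left out in turn the change stayed between -1.18 and -1.02 and the adjusted p between 0.00253 and 0.0293. Of the 8 genes 1 was called, and 2.35% of all genes were. This comparison uses the same sham 72 h arrays as the comparison of the sham groups, so the high sham 72 h level enters both.

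Bhlhe41 and Rora were the other genes without overlap at 72 h, which made 3 of 8 where 3.54% of all genes showed this. Bhlhe41 was 5.59, 5.76 and 5.99 after MCAO against 6.19, 6.33 and 6.46 after sham operation (log2 difference -0.55, SE 0.17, adjusted p = 0.110). Rora was 7.87, 7.97 and 8.19 against 7.26, 7.71 and 7.83 (0.37, SE 0.11, adjusted p = 0.0826). Neither passed in the fit of all 24 arrays. Fitted on the 12 arrays of 72 h alone, both passed (Bhlhe41 adjusted p = 0.000860, Rora adjusted p = 0.0373). So did Bhlhe41 without MCAO 24 h replicate 3 (adjusted p = 0.0418) and Rora without MCAO 24 h replicate 6 (adjusted p = 0.0428), arrays that enter here only through the shared spread. With array weights both passed too (Bhlhe41 adjusted p = 0.00302, Rora adjusted p = 0.00918), and without MCAO 24 h replicates 5 and 6 as well (0.0247 and 0.0305). With the receptor component Bhlhe41 alone of these passed (adjusted p = 0.0298).

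The remaining 5 genes did not pass at 72 h. Tef was 5.77, 5.98 and 6.0 after MCAO, inside the sham range of 5.55 to 6.48 (-0.16, 95% interval -0.50 to 0.17), and its SD was 0.09 against 0.35 in sham 72 h. Hlf was 5.82, 6.13 and 6.17 (-0.14, 95% interval -0.61 to 0.34). Ciart was 5.18, 5.69 and 6.20 (-0.16, 95% interval -0.66 to 0.34), Bhlhe40 was 8.67, 9.08 and 9.19 (-0.25, 95% interval -0.56 to 0.06) and Nfil3 ranged from 4.61 to 5.17 (0.07, 95% interval -0.25 to 0.39). The median over the 8 genes was -0.16, against 0.00 over all genes. In the core list 1 of 19 genes passed at 72 h, Per1, which rose by 0.94 (SE 0.22, adjusted p = 0.0187), and 0 fell (median 0.13). In the list of other clock output genes 6 of 27 rose and 1 fell (median 0.07), with Pnpla2 (0.81, SE 0.09), Map3k6 (1.46, SE 0.21), Sik1 (0.76, SE 0.15) and Pparg (0.48, SE 0.10) the smallest in p.

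**Figure D3:**
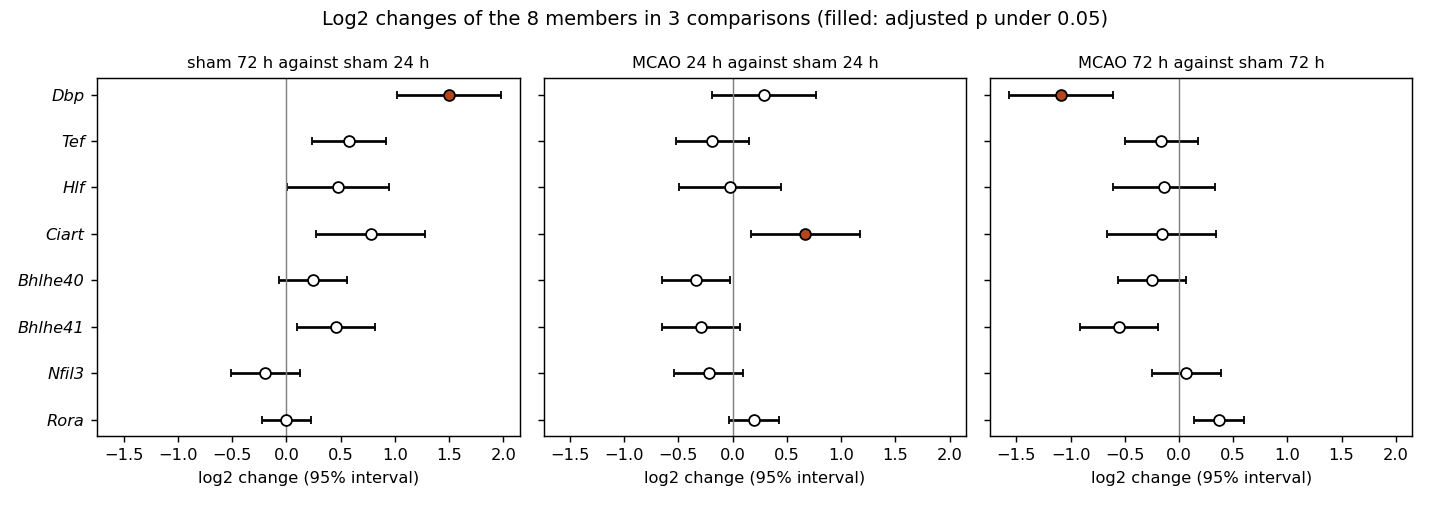
Log2 change with its 95% interval (horizontal) of the 8 clock output genes (vertical) between sham groups, after MCAO at 24 h and after MCAO at 72 h, with calls filled. Dbp is called at 1.5 between the sham groups and at -1.09 after MCAO at 72 h, and Ciart at 0.67 after MCAO at 24 h. The comparison of sham groups shares its sham arrays with both MCAO comparisons.

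The effect of MCAO on Dbp differed between the times. This difference is also the change between MCAO groups (log2 0.12) minus that between sham groups (1.5). It is equally the change after MCAO at 72 h (-1.09) minus that at 24 h (0.29). Both ways use the same sham 72 h arrays, so the parts cannot be told apart. The log2 change at 72 h was lower than that at 24 h by 1.38 (log2 difference -1.38, SE 0.33, adjusted p = 0.0330), a call made for 1.79% of all genes. It was lost without any of 7 arrays (adjusted p = 0.0517 to 0.0612, difference -1.39 to -1.23), which were MCAO 72 h replicates 3, 5 and 6, sham 24 h replicates 1 and 4 and sham 72 h replicates 4 and 6. With the receptor component in the fit, it was -1.65 (adjusted p = 0.209). Ciart had a difference of -0.83 (SE 0.34, adjusted p = 0.199), and the other 6 lay between -0.26 and 0.29. Of the 19 core genes 0 passed with limma in this comparison, and at an unadjusted p under 0.05 there were 3 higher and 5 lower. Their largest differences were Arntl at 1.02 (adjusted p = 0.0847) and Per3 at -0.91 (adjusted p = 0.0667).

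Seen along time in the MCAO hearts, Dbp did not pass, with a mean of 8.92 ± 0.62 at 24 h and 9.04 ± 0.21 at 72 h (SD, n = 6 each), a log2 difference of 0.12 (95% interval -0.36 to 0.60). Arntl fell over the same interval (log2 change -0.76, SE 0.22, adjusted p = 0.0307). Tef rose, from 5.34 ± 0.41 to 5.94 ± 0.09 (log2 change 0.60, SE 0.16, adjusted p = 0.0218). All 6 arrays at 72 h lay above the MCAO 24 h mean, and 0 of 6 above the highest MCAO 24 h array (6.01). Tef was 1 of 8 called, where 10.4% of all genes were. Between the sham groups the difference of Tef was 0.58. The change between MCAO groups did not pass on the 12 MCAO arrays alone (adjusted p = 0.0516), without MCAO 24 h replicates 5 and 6 (0.53, adjusted p = 0.0564) with array weights (0.52, adjusted p = 0.0833) or with the receptor component, where it was 0.14 (adjusted p = 0.857). Bhlhe40, at 0.33 (SE 0.15, adjusted p = 0.162), passed without MCAO 24 h replicate 6 (0.46, adjusted p = 0.0271).

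Ordered by group mean, Dbp ran from sham 24 h (8.63) over MCAO 24 h (8.92) and MCAO 72 h (9.04) to sham 72 h (10.13), and of the neighbours compared the first pair and the MCAO pair did not differ beyond their spread while the last pair did. Arntl ran in the opposite order, 6.80, 6.18, 5.43 and 5.02. Its first step passed (log2 change -0.61, adjusted p = 0.0478), and its MCAO 72 h and sham 72 h arrays overlapped (log2 difference 0.41, adjusted p = 0.566). Bhlhe41 had MCAO 24 h lowest (5.58), then MCAO 72 h (5.78), sham 24 h (5.87) and sham 72 h (6.33). Rora had the same mean in both sham groups (7.62), and its means in MCAO 24 h and MCAO 72 h were 7.82 and 7.99.

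**Figure D4:**
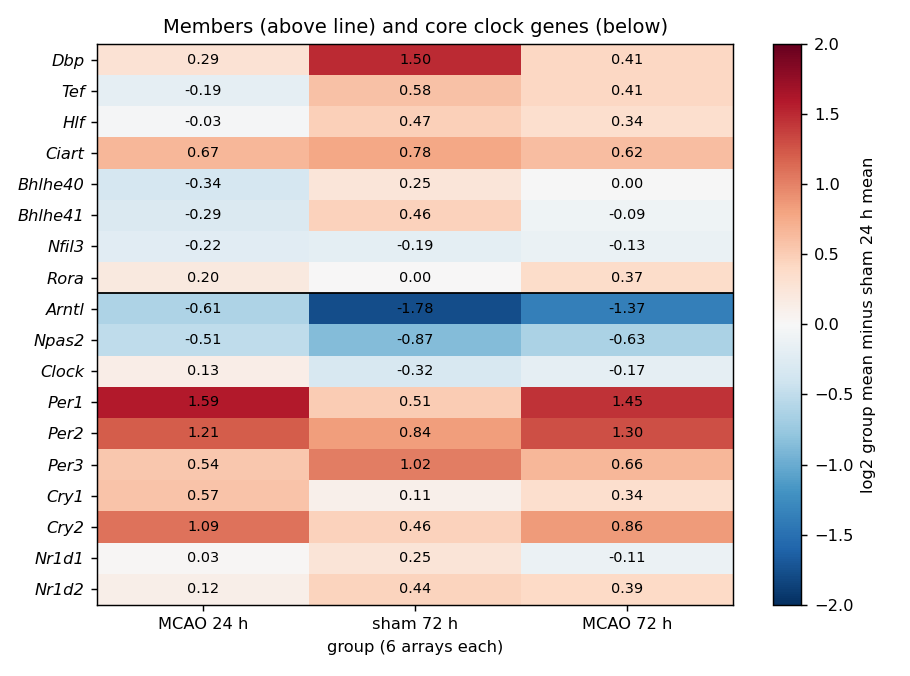
Group mean minus the sham 24 h mean (log2, colour and printed value) for the 8 clock output genes above the line and 10 core clock genes below it, in MCAO 24 h, sham 72 h and MCAO 72 h (6 arrays each). Dbp is 1.5 in sham 72 h against 0.29 and 0.41 in the MCAO groups, while Per1 is 0.51 in sham 72 h against 1.59 and 1.45.

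Within groups, arrays with more Dbp had more Tef and less Arntl. With each group's mean removed, Dbp and Tef correlated at Pearson r = 0.847 (Spearman 0.827) over the 24 arrays, and at 0.817 without the 2 arrays farthest in Dbp. Within the single groups of 6 arrays r was 0.971 in sham 24 h, 0.875 in MCAO 24 h, 0.819 in sham 72 h and 0.910 in MCAO 72 h. Dbp and Arntl correlated at r = -0.795 (Spearman -0.757, -0.741 without the 2 farthest), with -0.834, -0.840, -0.916 and -0.415 in the same order of groups. Dbp correlated with Hlf at 0.617 (Spearman 0.816) and with Ciart at 0.624 (Spearman 0.543), the latter at -0.135 in sham 24 h. With Nfil3 it was -0.057 (Spearman 0.008, 0.203 without the 2 farthest), with -0.282, 0.007, -0.066 and 0.604 in the same order of groups. Bhlhe40 and Bhlhe41 correlated at 0.565, and at 0.331 without the 2 arrays farthest in Bhlhe40. These values describe arrays that share a normalization and carry no test.

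**Figure D5:**
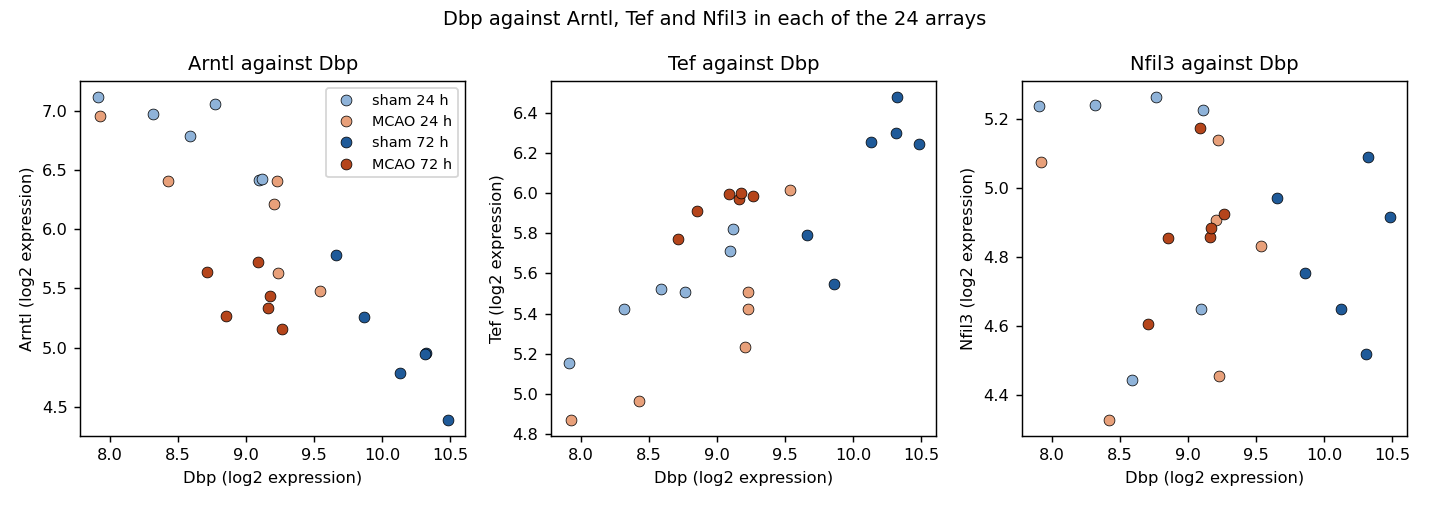
Log2 expression of Arntl, Tef and Nfil3 (vertical, 1 panel each) against Dbp (horizontal) in the 24 arrays, coloured by group. Arntl falls and Tef rises along Dbp within groups (r with group means removed -0.795 and 0.847). Nfil3 shows no such line over all groups (-0.057), with r from -0.282 (sham 24 h) to 0.604 (MCAO 72 h) in single groups.

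Genes with a pattern most like each factor were taken by Pearson r over the 24 arrays, group differences included, among genes at or above the median level. For Dbp they were Per3 (0.801), the titin cap gene Tcap (0.799) and Tef (0.794), and the most opposite gene was Arntl (-0.836). For Tef they were Sycp3 (0.812), Foxf1 (0.799) and Dbp (0.794), with Clock the most opposite (-0.852). So for Dbp and Tef the opposite extreme was a gene of the BMAL1-CLOCK pair. Rora was most like Crebrf (0.889), Xrn1 (0.822) and Usp47 (0.798), and most opposite to Spryd4 (-0.857).

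The repressors had other neighbours. Ciart was nearest to Arhgap21 (0.700), Hlf (0.668) and Snora62 (0.659), against Uba6 (-0.716). Bhlhe40 was nearest to Plaat1 (0.811), Itsn1 (0.785) and Krt32 (0.766), against Cdyl2 (-0.802). Bhlhe41 was nearest to Ighm (0.785), Rasl11b (0.757) and Tmco1 (0.735), against Tmem41a (-0.829). Nfil3 was nearest to Ppp1r8 (0.677), Nppc (0.671) and Grrp1 (0.657), against Ankzf1 (-0.684). The neighbours of Hlf, Osbpl3 (0.870), Klf13 (0.859), Khdrbs1 (0.850) and, opposite, Apaf1 (-0.862), rested in part on MCAO 24 h replicates 5 and 6, without which r was 0.600, 0.651, 0.566 and -0.670.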

How the data were processed

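RNA of whole hearts was hybridised to Affymetrix arrays, per the labels. The deposited table gives log2 expression of 24973 gene identifiers in 24 arrays. The log2 scale was judged from the range of values (2.78 to 13.5). Sorted values of any column match the others to within 0.00191, as they do after quantile normalization, a step that no label names. The sources used here do not name the summarization or the genome build, and the submitters' processing notes list HOMER without its role. The number of arrays limits the precision.

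Groups follow sample titles; the free text of the 72 h samples names 24 h instead. Symbols came from the platform annotation, which gave 1 symbol for 24015 identifiers and none for 958. Where several identifiers shared a symbol (4 symbols, none of a clock output gene), the brightest on average was used. limma version 3.58.1 (R version 4.3.3, lmFit and eBayes, 4 group means) tested 24011 genes in 5 contrasts, with Benjamini-Hochberg adjustment over all genes at 0.05. Standard errors are moderated. The fit was tested on simulated data. Changes of 1 log2 were recovered in 90% to 99% and changes of 0.5 log2 in 44% (difference between times) to 77%, with 57% for MCAO at 72 h. False calls were 2.29% (MCAO at 24 h) and 1.7% (sham groups). They exceeded 5% for MCAO at 72 h (7.14%), the difference (6.29%) and the MCAO groups (6.42%).

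The 8 genes, the core clock list (19 of 21 measured), the list of other clock output genes (27 of 28), the markers, tests and alternatives were chosen with earlier results of these data known. Named were the 8 genes, list genes past the threshold (the 6 and 4 smallest p per contrast), and for each of the 8 the 3 highest and the lowest r. Values of Per2, Arntl, Per3, Nr1d1 and Nr1d2 below the threshold were added after they were seen. Alternatives were another prior, median centring, a further quantile normalization, no dim genes, weighted arrays, a replicate block, the compared arrays alone, a receptor gene component and arrays left out. The replicate numbers did not pair the arrays (r over 0.1 in 3 of 36 same-numbered pairs). Promoters were searched by letters.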

Additional observations from a re-analysis of the deposited data

Results flagged for a closer look

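The level of Hlf in sham 72 h replicate 6, 6.71 log2, lay far above the other 5 arrays of its group, the next of which was at 6.19. The gap made up 0.716 of the group's range, above the 95% limit of Dixon's test for 6 samples. Among 32 sets of 6 arrays (8 genes in 4 groups) this was the only such value, and chance alone flags about 1 set in 20. The same array had the highest Dbp (10.48) and Ciart (6.74) and the lowest Arntl (4.39) of its group. Its atrial (8.34) and adipocyte (5.47) markers were also the highest of the group. The part of these in the Hlf value was not tested. Without this array the Hlf difference between sham groups went from 0.47 to 0.37.

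The effect of MCAO on Dbp at 72 h was lower than at 24 h by 1.38 (log2 difference -1.38), a difference tested in the fit. It equals the change after MCAO at 72 h (-1.09) minus that at 24 h (0.29). The same value is the change between MCAO groups (0.12) minus that between sham groups (1.5). Both ways use the same sham 72 h arrays, so the parts cannot be told apart. Among the other clock output genes, Coq10b, which encodes a coenzyme Q binding protein, had a difference of -0.77 (SE 0.15, adjusted p = 0.0144): it rose by 0.66 at 24 h and was at -0.11 at 72 h.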

How the results depend on the processing

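The direction and call of the Dbp change after MCAO at 72 h were kept under the 9 other settings (adjusted p = 0.000348 to 0.0272). Over the 5 comparisons, the 8 genes gave 352 values under those settings, of which 319 kept direction and call, 12 lost a call, 12 gained one and 9 changed sign. With single arrays left out, 906 of 960 were kept, 26 lost and 4 gained a call, and 24 changed sign. No value that changed sign was called.

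With array weights, genes passing went from 5237 to 3259 (MCAO at 24 h), from 565 to 1905 (MCAO at 72 h), from 5 to 27 (sham groups) and from 2496 to 1408 (MCAO 72 h against MCAO 24 h), and of the 8 there passed 3 at 72 h, 2 between sham groups and 0 between MCAO groups, in place of 1 each. With only the arrays compared, the genes were 2194, 1410, 1 and 848, and of the 8 there passed 0, 3, 0 and 0. Without MCAO 24 h replicates 5 and 6, 1103 genes passed at 72 h and 1079 (430 with all arrays) in the difference between times, and 3 of the 8 passed at each time. With the receptor component, 319 genes passed at 24 h, 5 in the difference and 20 between MCAO groups, with 0 of the 8 in each, and 2 of the 8 at 72 h. The component sets MCAO 24 h apart from every other group, so counts that use that group do not measure stability. Without dim genes, 267 passed in the difference and 1582 between MCAO groups. With the replicate block, a number that does not pair these arrays, 1 gene passed between sham groups and 0 of the 8 passed there, at 24 h and in the difference (Dbp adjusted p = 0.0771 and 0.0609, Ciart 0.0735).

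Signs changed for Hlf at 24 h (0.18 with weights, 0.27 without replicates 5 and 6, 0.30 with the component), Tef at 24 h (0.31, component), the difference of Tef (-0.13, -0.048 and -0.46 in that order) and of Bhlhe41 (0.43, component), and Dbp between MCAO groups (-0.15, component); the cause was not tested. Leaving out 1 array gave 4234 to 5867 genes at 24 h, 393 to 821 at 72 h, 197 to 1012 in the difference, 1 to 6 between sham groups and 1615 to 3455 between MCAO groups, with 0 to 2, 1 to 2, 0 to 1, 0 to 1 and 1 to 2 of the 8.
Over single arrays left out, the values that changed sign ranged for Bhlhe40 in the difference (-0.016 to 0.21), Ciart between MCAO groups (-0.21 to 0.089), Ciart at 72 h (-0.29 to 0.022), Dbp between MCAO groups (-0.083 to 0.24), Hlf at 24 h (-0.15 to 0.27), Hlf in the difference (-0.41 to 0.018), Rora between sham groups (-0.040 to 0.075) and Tef in the difference (-0.088 to 0.16).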

Other observations

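Single arrays were low across several of the 8 genes. MCAO 72 h replicate 6 was the lowest of its group for 6 of the 8 (Dbp, Tef, Hlf, Ciart, Bhlhe40 and Nfil3) and the highest for 0. It also had the highest fibroblast markers of its group (7.97, the others 7.46 to 7.63). Its leukocyte markers (5.01, the others 4.71 to 4.86) and adipocyte markers (5.46, the others 5.14 to 5.38) were the highest as well. The part of these markers in the low values was not tested. Sham 72 h replicates 1 and 2 were the lowest of their group for 4 and 3 of the 8. In sham 72 h the lowest Dbp (9.66) and the highest Arntl (5.78) were in the same array, replicate 1, and the highest Dbp (10.48) and the lowest Arntl (4.39) in replicate 6. In MCAO 24 h, replicate 3 had the lowest Dbp (7.92) and Tef (4.87) and the highest Arntl (6.96).

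The nuclear receptor gene Nr1d1, whose product represses Arntl at the elements that RORA activates, did not pass in the sham comparison (log2 difference 0.25, SE 0.14) or after MCAO at 72 h (-0.36, SE 0.14, adjusted p = 0.222). Its relative Nr1d2 was at 0.44 (SE 0.15) and -0.05 (SE 0.15) in the same comparisons.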
